A study of Mus musculus with 6 samples.

Results

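The genes described here are 8 members of the purinergic system, which lets cells sense and clear extracellular nucleotides and adenosine: the P2Y receptors P2ry12, P2ry13 and P2ry6, the P2X channels P2rx4 and P2rx7, the ectonucleotidase Entpd1, and the adenosine receptors Adora3 and Adora1. They were taken by symbol from a deposited table of 15388 genes, and all 8 were found and tested among 15343 genes. The mice carried Cx3cr1-Cre/Ert2+; NuTRAP+, a tamoxifen-inducible Cre recombinase driven by the Cx3cr1 promoter with a reporter that labels the ribosomes of recombined cells with GFP and their nuclear envelope with a second tag. Per the methods of the study, males and females were induced with tamoxifen at about 3 months of age. Hippocampi of each of 3 animals, numbered 201, 207 and 208, were homogenized, and translating ribosome affinity purification (TRAP) gave 2 libraries per animal. Input was the cleared homogenate of the whole tissue, and Positive was the RNA on ribosomes captured with anti-GFP antibody. Both fractions therefore shared the genotype, the tamoxifen and the animal. Cx3cr1 is also active in macrophages outside the microglial population, so the driver does not separate microglia from them.

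ATP, ADP and UDP leave cells through channels, vesicles or injury and act on 2 receptor classes. P2X receptors are ATP-gated cation channels, while P2Y receptors couple to G proteins and respond to ATP, ADP, UTP or UDP according to the subtype. Ectonucleotidases on the cell surface break the nucleotides down, and the adenosine that results acts on its own G protein-coupled receptors. In brain, microglial processes move towards ADP through P2Y12, uptake of debris is triggered by UDP through P2Y6, and strong ATP signals open P2X7 and lead to assembly of the NLRP3 inflammasome. The A1 adenosine receptor is best known as a presynaptic brake on neurons.

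The libraries held 14879734 to 16488460 reads in Input and 15790210 to 17757918 in Positive. Values below are scaled reads, the reads of a gene divided by a size factor of its library, and errors are the SD over 3 animals unless an SE is named. In Positive, all 14 microglia markers rose, with a median log2 fold change of 4.66, and Cx3cr1 itself went from 303 ± 24.1 to 8286 ± 1468 scaled reads (n = 3). Markers of other populations were read beside it, where 24.0% of all genes tested were called higher and 22.0% lower. All 7 border macrophage markers rose, Pf4, Lyve1 and Ms4a7 among them having passed the filter on low values only through Positive (median 4.15, summed level 197 to 254 in Input and 2635 to 5768 in Positive), as did all 8 endothelial markers (median 1.94, 1710 to 2115 and 4670 to 9430). All 8 oligodendrocyte markers fell (median -2.58). Of 9 neuron markers, 2 rose (Gad1 and Gad2) and 7 were not called (median 0.08), near the share of all genes called higher. The Positive library of animal 208 was the least enriched, with a median microglia marker log2 ratio of 4.38 against 4.59 and 4.84 in animals 201 and 207, and an endothelial median of 1.17 against 2.19 and 2.23. The part of these populations in the results below was not tested. Both fractions of an animal came from 1 homogenate, so a fold change compares captured ribosomes with the whole tissue, and whether a level in either fraction comes from the number of cells of a type or from their RNA per cell cannot be told apart.

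Of the 8 purinergic genes, 7 rose in Positive, 0 fell and only Adora1 was not called (edgeR quasi-likelihood test, Benjamini-Hochberg adjusted over all genes tested). The count of 0 was the same at an unadjusted p under 0.05, with DESeq2 and with limma. Among all genes tested, 24.0% were called higher and 22.0% lower. The 7 genes had every Positive library above every Input library, which was so for 28.9% of all genes. Of the 7, 6 rose over 5-fold, which was so for 3.75%. Adora3, in both counts, passed the filter on low values only through Positive. P2rx7 was just past the cutoff at 5.05-fold. It was under 5-fold with total count scaling (log2 fold change 2.26), limma (2.28) and the animal as a replicate block (2.31). So it was without the Input (2.31) or the Positive library (2.11) of animal 207. The log2 fold changes of the 7 genes ran from 0.88 for P2rx4 to 5.29 for P2ry13. With Adora1 included the median was 3.96. The median over all genes was -0.01, a value that the median-of-ratios scaling places near 0, and -0.09 with total count scaling. In the plot of values by library each gene except Adora1 goes up in each animal, by amounts that differ widely between genes.

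**Figure D1:**
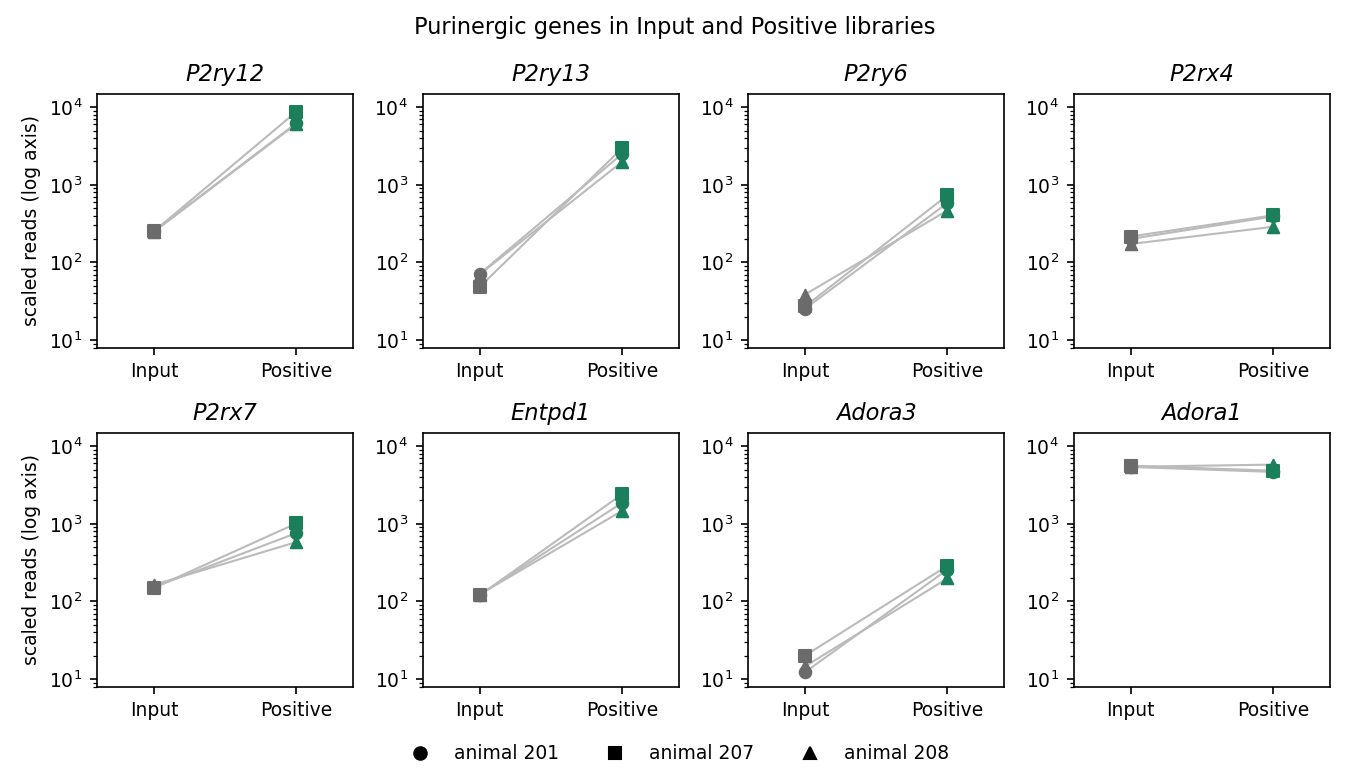
Scaled reads (log axis) of the 8 purinergic genes in Input (grey) and Positive (green) libraries, where each symbol is 1 library and a line joins the libraries of 1 animal (circle 201, square 207, triangle 208). P2ry12 goes from 252 to 7022 scaled reads on average and P2rx4 from 197 to 361, while the Input and Positive libraries of Adora1 overlap, with means of 5481 and 5095.

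Several of these genes sit side by side in the genome. In mm10, P2ry13 (ENSMUSG00000036362, chr3:59207892-59210882) and P2ry12 (ENSMUSG00000036353, chr3:59216272-59262871) are neighbours on the minus strand, and both lie inside Med12l (chr3:59005825-59318682), a gene of the opposite strand. P2rx7 (ENSMUSG00000029468, chr5:122643911-122691432) and P2rx4 (ENSMUSG00000029470, chr5:122707544-122729738) are neighbours on the plus strand. P2ry6 (ENSMUSG00000048779) is at chr7:100937630-100974649, minus strand, and Entpd1 (ENSMUSG00000048120) at chr19:40612366-40741602, plus strand. Adora3 (ENSMUSG00000000562) is at chr3:105870858-105908926, plus strand, and Adora1 (ENSMUSG00000042429) at chr1:134199223-134235431, minus strand.

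The bases before their start sites differ in composition. RefSeq (GRCm38.p6) gave 10 start sites for 7 of the genes, and the 250 bases before 4 of them are shown because they belong to the 2 neighbouring, most enriched receptors and to an adenosine receptor gene that rose (Adora3) and 1 that was not called (Adora1). Capitals mark GAGGAA, a form of the box bound by the myeloid factor PU.1, searched on both strands and therefore also as TTCCTC. The windows are chr3:59262986-59263235 (minus strand) for P2ry12, chr3:59210883-59211132 (minus) for P2ry13, chr3:105904171-105904420 (plus) for Adora3 and chr1:134235458-134235707 (minus) for Adora1, each written 5′ to 3′.
P2ry12: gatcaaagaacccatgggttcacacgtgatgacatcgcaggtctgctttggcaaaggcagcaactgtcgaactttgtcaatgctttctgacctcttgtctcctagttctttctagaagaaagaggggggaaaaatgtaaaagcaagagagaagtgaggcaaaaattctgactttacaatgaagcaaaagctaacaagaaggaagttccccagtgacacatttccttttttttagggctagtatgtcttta
P2ry13: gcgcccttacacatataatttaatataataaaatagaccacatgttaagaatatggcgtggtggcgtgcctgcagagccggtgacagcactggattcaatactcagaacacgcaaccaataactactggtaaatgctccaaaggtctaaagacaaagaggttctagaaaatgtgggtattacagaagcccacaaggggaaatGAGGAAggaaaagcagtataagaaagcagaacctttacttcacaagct
Adora3: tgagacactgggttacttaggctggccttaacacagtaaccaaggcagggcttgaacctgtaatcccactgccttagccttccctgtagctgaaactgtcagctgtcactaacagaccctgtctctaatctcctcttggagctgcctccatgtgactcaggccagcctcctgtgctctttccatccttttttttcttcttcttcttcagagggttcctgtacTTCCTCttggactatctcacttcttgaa
Adora1: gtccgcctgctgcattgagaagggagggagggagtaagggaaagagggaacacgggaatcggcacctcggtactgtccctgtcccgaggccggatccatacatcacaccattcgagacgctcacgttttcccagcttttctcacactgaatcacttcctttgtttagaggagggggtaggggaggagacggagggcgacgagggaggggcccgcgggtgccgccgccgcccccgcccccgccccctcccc
P2ry13 had 1 match, beginning 48 bases before the start (position -48), and Adora3 had 1 at -28. The second start site of Entpd1 had 2, at -235 and -227, and the other 7 windows had none. Over all 32851 RefSeq promoters of the same length, 23.3% held the motif. The windows of P2ry12, P2ry13 and Adora3 held 3, 5 and 0 CG dinucleotides, where the median promoter held 6. Those of Adora1 shown here, the first start of Entpd1 and P2rx4 held 19, 18 and 13. The windows of P2rx7 held 6 and 4, the second start of Entpd1 held 8 and the other start of Adora1 held 18. A match of letters is a description and not a binding site.

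The P2Y receptors were the most enriched of the 8. P2ry12, the ADP receptor that guides microglial processes, had 253, 253 and 250 scaled reads in the Input of animals 201, 207 and 208 and 6224, 8757 and 6084 in Positive. All 3 Positive libraries were far above Input, and animal 207 stood highest. The log2 fold change was 4.80 ± 0.15 (SE), or 27.9-fold, with an edgeR adjusted p of 1.94e-10, rank 38 of all genes tested. P2ry13, a second receptor for ADP, had 71.1, 48.3 and 70.0 scaled reads in Input and 2489, 2940 and 1971 in Positive. Its groups were also apart, with the lowest Input and the highest Positive value both in animal 207. The log2 fold change was 5.29 ± 0.18 (SE), or 39.1-fold (edgeR adjusted p 2.41e-10), rank 13. P2ry6, the UDP receptor, had 25.4, 27.2 and 38.7 scaled reads in Input and 583, 734 and 467 in Positive. Here animal 208 had both the highest Input and the lowest Positive value. P2ry6 rose 19.6-fold (log2 fold change 4.29 ± 0.21 SE, edgeR adjusted p 5.10e-09).

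P2ry12 is also the ADP receptor of platelets, and platelet markers were therefore read beside it. Of 7 such markers 3 were tested: Gp9 rose (log2 fold change 5.25 ± 0.39 SE, from 3.25 ± 2.05 to 131 ± 34 scaled reads, a gene that passed the filter only through Positive), Gp1bb fell (-0.57 ± 0.18) and Itga2b was not called (-0.13 ± 0.29). Their summed level was 194 to 238 scaled reads in Input and 239 to 332 in Positive. Most of the Input sum was Gp1bb, at 177 ± 15.7 in Input and 120 ± 26.1 in Positive. The markers Gp1ba, Ppbp, Gp6 and Treml1 were not analysed here. Med12l, the gene that surrounds P2ry12 and P2ry13 on the other strand, moved the opposite way, from 774 ± 58.6 to 604 ± 23.1 scaled reads (log2 fold change -0.36 ± 0.09 SE, edgeR adjusted p 0.00701), and shared 9 exon bases with P2ry12 and 0 with P2ry13. The libraries were directional, and reads were aligned by strand.

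The P2X channels rose less. P2rx7, the channel opened by high ATP that leads to potassium efflux and inflammasome assembly, had 153, 150 and 164 scaled reads in Input and 761, 1014 and 583 in Positive. The groups did not overlap, but the ratio varied between animals, from a log2 of 1.83 in animal 208 to 2.75 in animal 207. It rose 5.05-fold (log2 fold change 2.34 ± 0.18 SE, edgeR adjusted p 2.88e-07). P2rx4, a channel that opens at lower ATP than P2X7 and is found largely in lysosomes of microglia, had 201, 216 and 173 scaled reads in Input and 391, 404 and 288 in Positive. Animal 208 was lowest in both fractions, and the ratios per animal lay close together, at 0.95, 0.90 and 0.73 on the log2 scale. P2rx4 rose 1.84-fold (log2 fold change 0.88 ± 0.15 SE, edgeR adjusted p 5.27e-04) and ranked 1413 of all genes.

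Entpd1 encodes CD39, the surface enzyme that hydrolyses ATP and ADP to AMP. It had 122, 120 and 123 scaled reads in Input and 1856, 2393 and 1466 in Positive. Input was nearly constant over the 3 animals, and the spread was in Positive, with animal 207 highest and 208 lowest. Entpd1 rose 15.6-fold (log2 fold change 3.97 ± 0.17 SE, edgeR adjusted p 1.05e-09). Its annotated span holds 3 intronic entries on its own strand (Gm16027, Gm8783 and AC166063.1) that share 0 exon bases with it.

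The adenosine receptors went separate ways. Adora3, which encodes the A3 receptor, had 12.3, 20.1 and 14.6 scaled reads in Input, where it was also the lowest of the 8 genes per length, and 257, 288 and 198 in Positive. It passed the filter on low values only through the Positive libraries. The log2 fold change was 3.95 ± 0.24 (SE), or 15.5-fold, with an edgeR adjusted p of 3.57e-08. Adora3 shares 779 exon bases on the same strand with Tmigd3, so its reads are uncertain, because how the authors' counting divided reads between them is not known. Tmigd3 had 0.553, 1.5 and 1 raw reads in Input and 41.1, 64.6 and 39.6 in Positive, at least 15.9-fold higher against a floor of 3 reads per library.

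Adora1, which encodes the A1 receptor, was the most abundant of the 8 genes per length in Input. It had 5402, 5603 and 5437 scaled reads there and 4661, 4834 and 5789 in Positive. The Positive libraries of animals 201 and 207 lay below all Input libraries and that of animal 208 above all of them. Positive was at 92.9% of Input, a log2 fold change of -0.11 ± 0.09 (SE) that was not called (edgeR adjusted p 0.363). Without the Positive library of animal 208 Adora1 was called lower, with a log2 fold change of -0.21 and an edgeR adjusted p of 0.0215, where the alternatives ranged from 0.0215 to 0.729. The neuron markers had median log2 ratios of 0.02, 0.03 and 0.24 in animals 201, 207 and 208, beside -0.21, -0.21 and 0.09 for Adora1. Adora1 also overlaps Mybph on the opposite strand over 1162 exon bases.

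**Figure D2:**
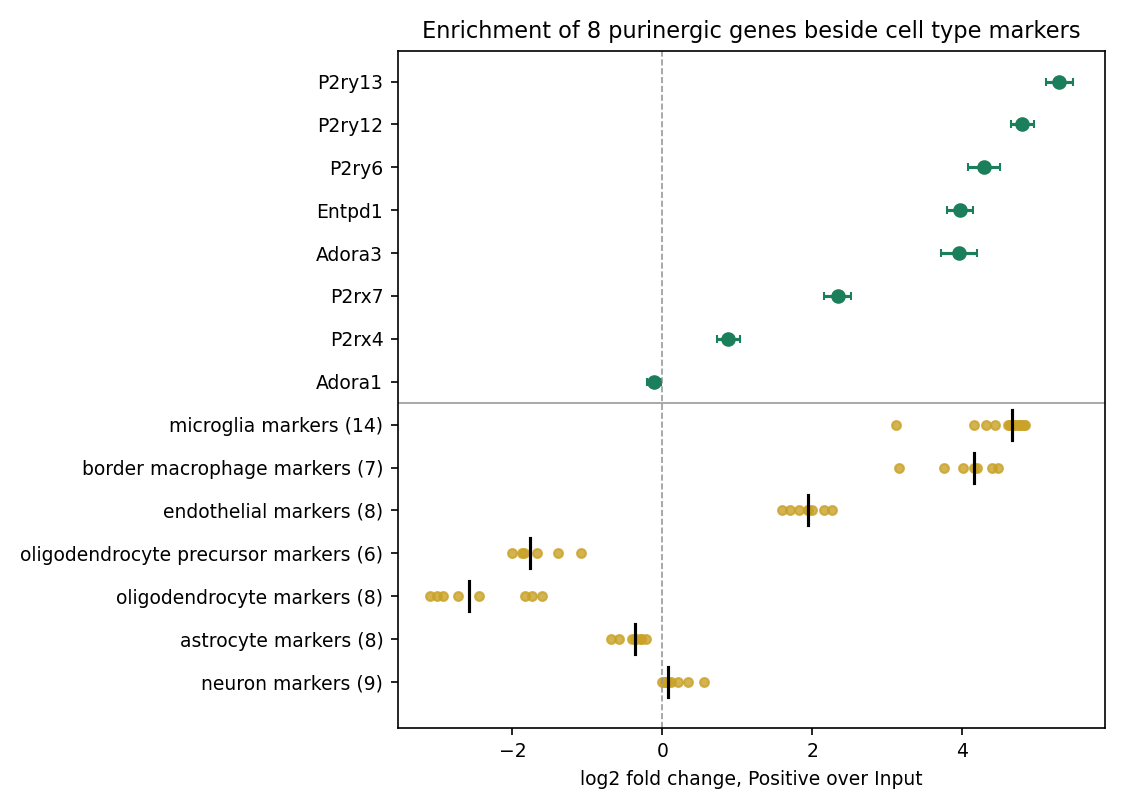
Log2 fold change of Positive over Input for the 8 purinergic genes (green points, bars SE derived from the edgeR test) above the single genes of 7 cell type marker lists (yellow points, number of genes in brackets, black line the median). P2ry13 and P2ry12 lie at or past the upper end of the microglia markers, P2rx7 and P2rx4 lie between these and 0, and Adora1 lies near 0, as do the neuron markers.

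Set against the microglia markers of the same animal, the genes formed a graded series. Values here are log2 ratios of an animal less the median of the 14 markers in that animal. P2ry13 lay above the median by 0.66 ± 0.35 and P2ry12 by 0.17 ± 0.13 (n = 3). P2ry6 lay at -0.36 ± 0.40, Entpd1 at -0.67 ± 0.15 and Adora3 at -0.69 ± 0.38, while P2rx7 at -2.31 ± 0.23, P2rx4 at -3.74 ± 0.17 and Adora1 at -4.71 ± 0.39 lay below. The single markers themselves had log2 fold changes from 3.12 to 4.84, a range that held P2ry12 and P2ry6 and was passed by P2ry13. Entpd1 (3.97) and Adora3 (3.95) were within it only through Sall1 at 3.12, since the next lowest marker was Aif1 at 4.16. The border macrophage markers ran from 3.16 (Ms4a7) to 4.48 (F13a1), which also held P2ry6, Entpd1 and Adora3.

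Neighbours in this order were compared within animals. P2ry13 exceeded P2ry12 by 0.49 ± 0.30 on the log2 scale, P2ry12 exceeded P2ry6 by 0.53 ± 0.46, Adora3 exceeded P2rx7 by 1.62 ± 0.51, P2rx7 exceeded P2rx4 by 1.43 ± 0.39, and P2rx4 exceeded Adora1 by 0.97 ± 0.29, each in 3 of 3 animals. P2ry6 exceeded Entpd1 by 0.31 ± 0.28, with a difference of 0.00044 in animal 208. Entpd1 and Adora3 differed by 0.02 ± 0.46, with differences of -0.36, 0.53 and -0.11, so their order was not apart from the spread between animals. With 3 animals the exact sign-flip permutation test cannot give a two-sided p below 0.25, so this test could call none of these 7 differences.

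Per length of exon, the order of levels changed between fractions. In Input, Adora1 had 947 ± 18.6 scaled reads per kb, 9.57 times the mean of P2ry12 at 99.0 ± 0.763, and all others were lower: P2rx4 at 28.0 ± 3.15, P2rx7 at 26.1 ± 1.21, P2ry13 at 25.0 ± 5.10, Entpd1 at 21.8 ± 0.304, P2ry6 at 10.5 ± 2.50 and Adora3 at 4.21 ± 1.08. The libraries of P2rx4 and P2rx7, of P2rx7 and P2ry13, and of P2ry13 and Entpd1 overlapped. In Positive, P2ry12 was highest with 2758 ± 591 scaled reads per kb, followed by P2ry13 at 976 ± 192 and Adora1 at 881 ± 105, whose libraries overlapped. Entpd1 had 341 ± 83.4, P2ry6 206 ± 46.3, P2rx7 132 ± 36.3, Adora3 66.5 ± 12.2 and P2rx4 51.4 ± 9.04 scaled reads per kb, with overlap between P2ry6 and P2rx7 and between Adora3 and P2rx4. By mean, P2rx4 thus went from the third place to the last. A level per kb depends on the length used. With the longest transcript in place of all exons P2rx4 was at 50.6 in Input and 92.7 in Positive. Some orders then reversed: Adora1 (1025) stood above P2ry13 (976) in Positive, and Entpd1 (28.8) above P2ry13 (25.0) in Input.

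**Figure D3:**
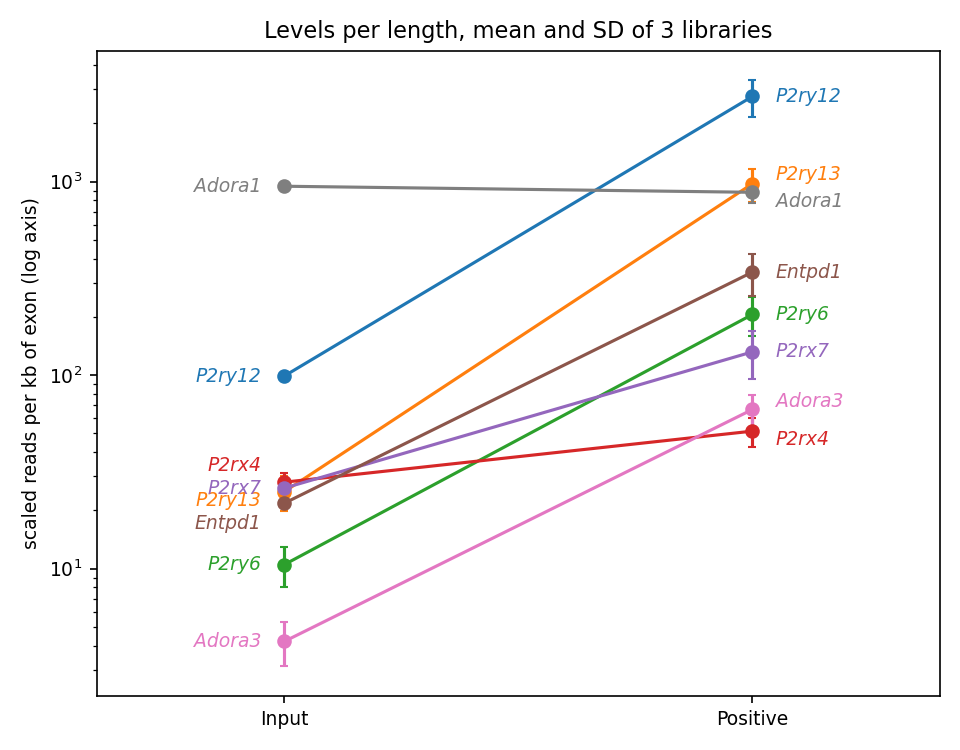
Scaled reads per kb of exon (log axis) of the 8 genes in Input and Positive, points the mean and bars the SD of 3 libraries, with a line per gene. The line of P2ry12 rises from 99.0 to 2758 and crosses that of Adora1, which runs from 947 to 881, and P2rx4 ends lowest at 51.4.

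The receptor make-up of the fractions was read as the share of each of 14 tested P2Y, P2X and adenosine receptors in their summed reads per kb. Adora1 held 75.8% ± 0.524 of receptor reads in Input and 17.4% ± 4.04 in Positive (n = 3). P2ry12 went from 7.92% ± 0.109 to 53.2% ± 2.89 and P2ry13 from 2.00% ± 0.43 to 18.9% ± 1.84. P2ry6 made up 3.97% of Positive, P2rx7 2.53%, Adora3 1.29% and P2rx4 1.00%. These shares sum to a fixed total, so the fall of one is tied to the rise of another. Neuron markers had a median log2 fold change of 0.08, so the shares of Positive describe that fraction and not 1 cell type. Which cells the Adora1 reads came from was not tested. In the Positive library of animal 208, the share of Adora1 was 21.7%, the highest of the 3.

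**Figure D4:**
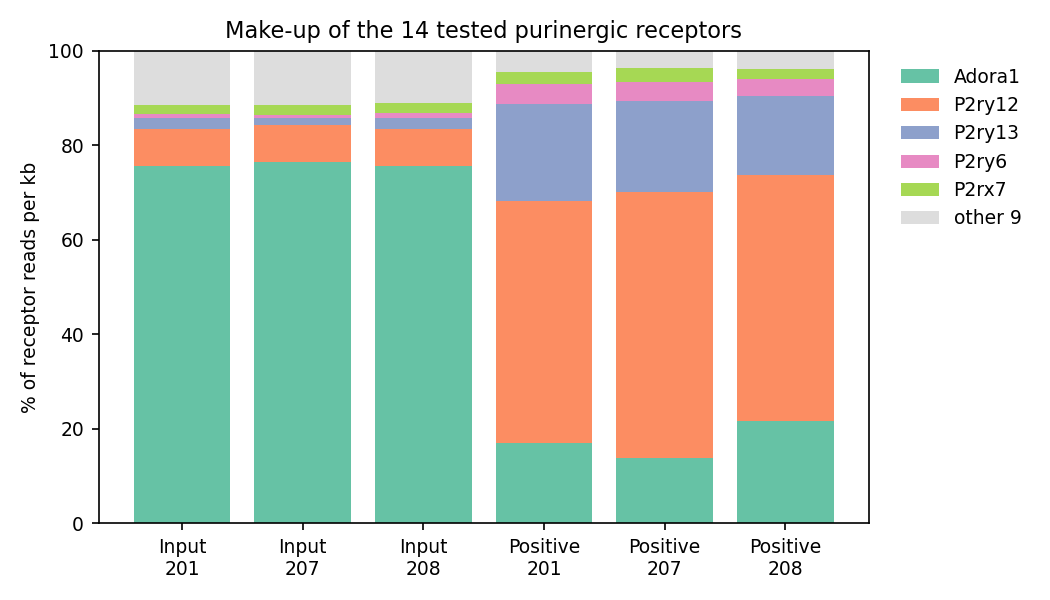
Share of 14 tested purinergic receptors in their summed scaled reads per kb, in %, for each of the 6 libraries, with 5 receptors in colour and the other 9 in grey. Adora1 fills 75.5% to 76.4% of each Input bar, and P2ry12 fills 51.2% to 56.5% of each Positive bar.

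The rest of each family was given by lists of purinergic genes. Beside the 8, the 9 lists held 91 other genes with 75 rows tested, of which 33 rose, 14 fell and 28 were not called, with a median log2 fold change of 0.09. The shares called either way over all genes were 24.0% and 22.0%, 46.0% together. Of the 33 that rose, 6 passed the filter on low values only through Positive. Leaving out the Input library of animal 207 gave 9 that fell.

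Among P2Y receptors, 4 of 9 were tested, and the 1 beside the 3 above was P2ry1, an ADP receptor of neurons and astrocytes. It had 62.0, 44.9 and 46.0 scaled reads in Input and 80.1, 65.8 and 60.0 in Positive and was not called (log2 fold change 0.43 ± 0.23 SE, edgeR adjusted p 0.154). The receptors P2ry2, P2ry4, P2ry10, P2ry10b and P2ry14 were not tested. Of P2X receptors, 6 of 7 were tested. P2rx1, a channel of smooth muscle and blood cells, had 4.07, 3.75 and 6.27 scaled reads in Input and 31.8, 57.6 and 43.0 in Positive. It passed the filter on low values only through Positive, and was called higher (log2 fold change 3.22 ± 0.39 SE, edgeR adjusted p 2.37e-05) at a low level. P2rx5 fell (-0.80 ± 0.24, edgeR adjusted p 0.0177), a call lost without the Input library of animal 207 (-0.67, adjusted p 0.0855, over all alternatives 0.00339 to 0.0855). The sensory channel subunit P2rx3 (-0.41 ± 0.33) and P2rx6 (-0.40 ± 0.28) were not called.

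All 4 adenosine receptors were tested. Adora2b, the A2B receptor of low affinity, had 77.1, 69.3 and 83.6 scaled reads in Input and 38.0, 25.0 and 23.8 in Positive, so the groups were apart. It fell to 37.8% of Input (log2 fold change -1.40 ± 0.25 SE, edgeR adjusted p 6.30e-04), the only one of the 4 called lower with all libraries. Adora2a, a receptor abundant in striatum, had 31.8 ± 6.69 and 26.3 ± 4.60 scaled reads and was not called (-0.27 ± 0.29).

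Of 10 ectonucleotidases 7 were tested, and Entpd1 had the largest fold change of them. Nt5e, which encodes CD73 and turns the AMP made by CD39 into adenosine, had 48.8, 65.5 and 41.8 scaled reads in Input and 28.7, 26.9 and 29.0 in Positive. The direction was thus opposite to that of Entpd1, the enzyme one step before it. Nt5e fell to 54.1% of Input (log2 fold change -0.89 ± 0.26 SE, edgeR adjusted p 0.015), and the call was lost without the Input library of animal 207 (-0.68, adjusted p 0.0878, over all alternatives 0.00704 to 0.0878). Enpp2, autotaxin, fell to 27.6% of Input (-1.86 ± 0.16), from 16084 ± 2474 to 4432 ± 1088 scaled reads, beside the fall of all 8 oligodendrocyte markers. Entpd2, an ATPase of astrocyte precursors, fell by 0.49 ± 0.19 on the log2 scale with an edgeR adjusted p of 0.0489, and leaving out any library but Positive 201 ended the call, with adjusted p from 0.0205 to 0.122 over all alternatives. Alpl, tissue-nonspecific alkaline phosphatase, rose (0.61 ± 0.20, edgeR adjusted p 0.0271) with 1 Positive library equal to the highest Input library at 151 scaled reads, and lost the call without Positive 201 (0.38, adjusted p 0.143), Input 207 (0.50, adjusted p 0.112) or Input 208 (0.61, adjusted p 0.0697), within a range of 0.00323 to 0.143 over all alternatives. Entpd3 (0.08 ± 0.17) and Enpp1 (0.14 ± 0.33) were not called.

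**Figure D5:**
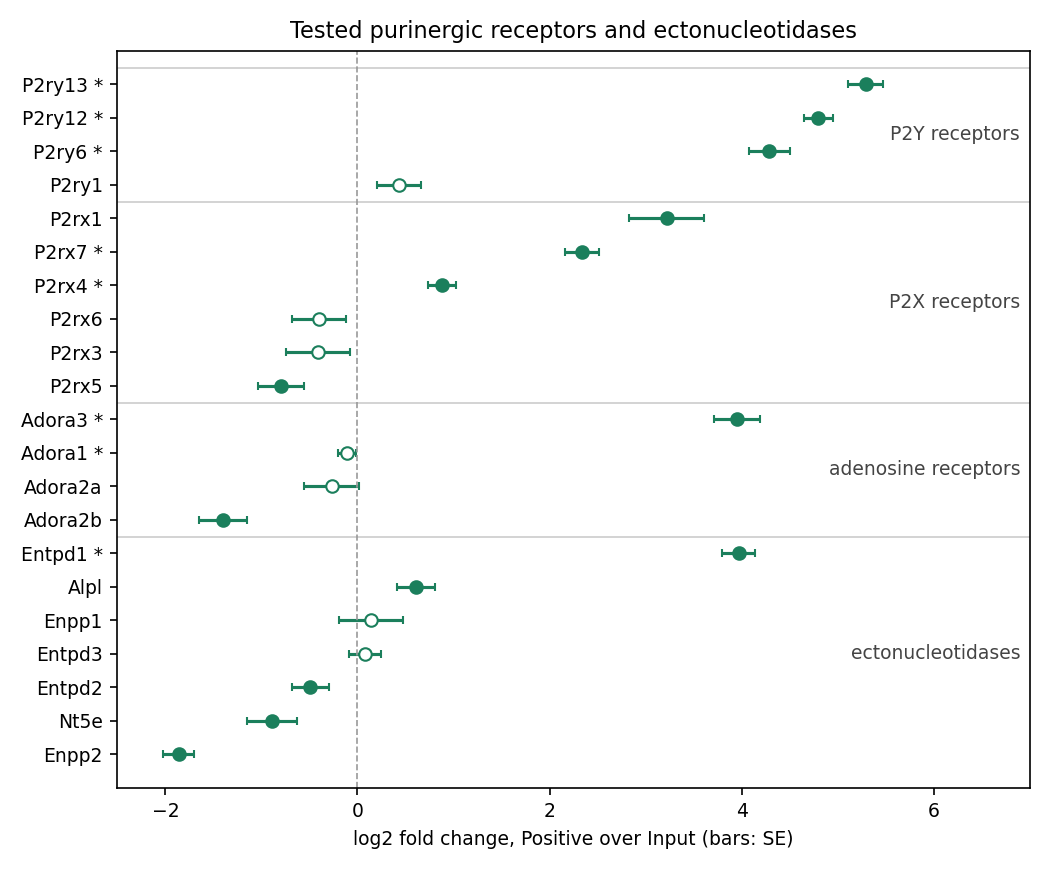
Log2 fold change of Positive over Input for each tested P2Y, P2X and adenosine receptor and ectonucleotidase, with bars for the SE, filled points for genes called by edgeR, open points for genes not called, and an asterisk at the 8 genes. Entpd1 at 3.97 stands apart from Nt5e at -0.89 and Enpp2 at -1.86, and Adora3 at 3.95 stands apart from Adora2b at -1.40.

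Genes that take adenosine further were mixed. Of 13 rows for adenosine metabolism and transport, 5 rose and 2 fell (median 0.04), where 24.0% and 22.0% of all genes did. Of the 5, 2 were the Pnp rows below, and Ada passed the filter on low values only through Positive. Slc29a3, a lysosomal nucleoside transporter, rose most (2.90 ± 0.17 SE, from 144 ± 20.9 to 1072 ± 236 scaled reads), followed by Pnp, purine nucleoside phosphorylase, in 2 rows of near-identical genes whose reads are uncertain (2.48 ± 0.13 and 2.34 ± 0.14). The falls were in Slc29a4 (-0.52 ± 0.12) and Nt5c3 (-0.29 ± 0.11), the latter with an edgeR adjusted p of 0.0441. Leaving out any library but Positive 208 ended the call of Nt5c3, and adjusted p ran from 0.0144 to 0.152 over all alternatives. The intracellular NTPDases had 1 of 4 genes lower, Entpd5 (-0.40 ± 0.11), and 0 higher by edgeR, also at an unadjusted p under 0.05, by DESeq2 and by limma. Entpd7 (-0.42 ± 0.16, edgeR adjusted p 0.0538) was called lower with the animal as a replicate block (-0.43, adjusted p 0.0214), under total count scaling (-0.50), and without Positive 207 (-0.53) or Positive 208 (-0.47), with adjusted p from 0.0214 to 0.197 over all alternatives. The adenosine kinase gene Adk (-0.27 ± 0.11, adjusted p 0.0583) was also called lower with the block (-0.27, adjusted p 0.0414), under total count scaling (-0.35) and without Positive 201 (-0.39), within a range of 0.0118 to 0.204. Both were named after their values were seen.

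Of 8 tested genes for the release of nucleotides, 2 rose and 3 fell (median -0.04), shares to be read beside the 24.0% and 22.0% of all genes. The channel gene Calhm2 rose from 56.7 ± 10.1 to 212 ± 67.4 scaled reads (1.90 ± 0.24 SE) and Abcc6, which passed the filter only through Positive, rose from 16.0 ± 4.31 to 37.0 ± 16.0 (1.21 ± 0.37), although Abcc6 was not called without Positive 201 (0.88), Input 201 (1.01) or Input 207 (1.25), with edgeR adjusted p from 0.0018 to 0.0845 over all alternatives. The astrocytic connexin gene Gjb6 (-1.10 ± 0.17) and the pannexin gene Panx2 (-0.73 ± 0.10) fell most, and 4 of 8 astrocyte markers also fell (median -0.36). Gja1 (-0.58 ± 0.13) is in both lists and counts among the falls of each.

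For each of the 8 genes, the 2 genes with the nearest pattern over the 6 libraries were found by the root mean square (RMS) difference of centred log2 scaled reads, among genes that averaged 50 or more scaled reads. P2ry12 was nearest to Lag3 (RMS difference 0.063) and Fcrls (0.073), and P2ry13 to Bin2 (0.214) and Fcgr1 (0.264). P2ry6 was nearest to Fcer1g (0.095) and Irf5 (0.107), Entpd1 to Unc93b1 (0.074) and Stab1 (0.098), and Adora3 to Klhl6 (0.104) and Lyl1 (0.117). P2rx7 was nearest to Itpripl2 (0.083) and Sqor (0.088), P2rx4 to Nfatc3 (0.034) and Mrc2 (0.038), and Adora1 to Opa3 and Brinp2 (0.019 each). The likeness is a description over 6 libraries that share 3 animals, and P2ry13, at the edge of the range of fold changes, had the most distant neighbours of the 8.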

How the data were processed

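Hippocampal RNA from 3 animals was measured in Input and Positive TRAP fractions (3 libraries each, grouped by the fraction label). Per the file headers and the study's methods, the authors trimmed reads, aligned them by strand to mm10 in Strand NGS and deposited expected counts per Ensembl gene (17.3% to 23.1% whole values), kept where at least 20 raw reads were present in every library of 1 fraction. The deposited log2 columns, scaled with DESeq and centred on Input, were used in 1 alternative only. How read mates were counted is not given in the sources used here. Depth was 14879734 to 17757918 reads, and 0 columns were left unmapped.

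Counts were rounded and tested in R 4.3.3 with edgeR 4.0.16 (quasi-likelihood), median-of-ratios scaling and Benjamini-Hochberg adjustment, with an adjusted p under 0.05 called. The SE of a fold change was derived from this test, as the absolute log2 fold change divided by the square root of the F statistic. Genes above 20 scaled reads in every library of 1 fraction were kept, which removed 45 genes. The test was unpaired, as in the study. Both libraries of an animal come from the same homogenate, which pairs them, and their deviations from the group means correlated at 0.194, 0.058 and 0.12 in animals 201, 207 and 208. DESeq2 1.42.0 and limma 3.58.1 were alternatives. Ratios within animals used a pseudocount of 1, and lengths and overlaps came from GENCODE vM21. Replicates are separate animals, and reads carried no molecular identifiers.

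The 8 genes and all lists were chosen with earlier results of these data known. Genes were named as all 8, all tested genes of the 4 receptor and ectonucleotidase lists, the 2 largest and 2 smallest called fold changes of other purinergic lists, overlapping genes, nearest patterns and up to 3 markers per list. Of 6 lymphocyte markers 0 were tested.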

Additional observations from a re-analysis of the deposited data

How the results depend on the processing

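The 7 purinergic genes that rose were called higher under every alternative run (TMM and total count scaling, DESeq2, both filters, limma, the replicate block and each library left out), with adjusted p of at most 0.00553, reached by P2rx4. With the replicate block, 7 were higher and 0 lower, and of the other purinergic genes 33 rose and 16 fell. The block changed no call among the 8 genes and added Entpd7 and Adk to those that fell. Leaving out 1 library gave log2 fold changes of 4.61 to 4.89 for P2ry12, 5.12 to 5.43 for P2ry13, 4.11 to 4.49 for P2ry6, 0.79 to 1.01 for P2rx4, 2.11 to 2.51 for P2rx7, 3.77 to 4.13 for Entpd1, 3.80 to 4.20 for Adora3 and -0.21 to -0.05 for Adora1, and the number of the 8 called lower was 0 to 1, the 1 being Adora1. The other purinergic genes that fell then numbered 9 to 17 and those that rose 27 to 33. Total count scaling moved the median of all genes from -0.01 to -0.09 and the share of calls that were higher from 52.2% to 41.6%.

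Entpd1 less Adora3 turned to -0.05 with a pseudocount of 0.1. With the longest transcript as length, Input levels per kb were 108 for P2ry12, 15.6 for P2ry6, 50.6 for P2rx4, 31.5 for P2rx7, 28.8 for Entpd1, 6.62 for Adora3 and 1103 for Adora1, and Positive levels were 306 for P2ry6, 92.7 for P2rx4, 451 for Entpd1, 105 for Adora3 and 1025 for Adora1. Total count scaling turned the sign of Lrrc8a (-0.0026), Vdac1 (-0.03), Gnaq (-0.04) and Nt5c2 (-0.04), and leaving out 1 library turned that of Lrrc8a (-0.05 to 0.20), Ak1 (-0.13 to 0.0074), Panx1 (-0.23 to 0.0020), Il18 (-0.42 to 0.04), Enpp1 (-0.15 to 0.49), Entpd4 (-0.08 to 0.01), Gnaq (-0.05 to 0.13) and Nt5c2 (-0.01 to 0.09), none of them called. In all, 43 values of other single genes lost a call, 11 gained one and 895 kept both direction and side of the threshold. Genes with few Input reads, such as Adora3, P2rx1, Gp9, Nlrp3 and Tmigd3, have fold changes that rest on those few reads.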

Other observations

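Signalling genes downstream of the receptors were also read, and gene names in this paragraph beyond the 2 largest and 2 smallest changes of a list were chosen after their values were seen. Of 31 tested genes on a list of G proteins and effectors around P2Y12 and adenosine receptors, 19 rose and 3 fell (median 0.32), where 24.0% and 22.0% of all genes tested did. The list also holds alpha subunits outside the inhibitory class, such as Gna12, Gna13 and Gna15. Among the rises, Plcb4 (adjusted p 0.0721), Gna12 (0.0847), Gna13 (0.0914) and Arrb1 (0.0692) were not called with limma. Each of them also lost the call without Input 207. The most enriched were Gna15, a G protein alpha subunit of blood cells that activates phospholipase C, from 31.2 ± 12.9 to 823 ± 99.8 scaled reads (log2 fold change 4.72 ± 0.22 SE, passing the filter on low values only through Positive), and Pik3cg, the catalytic subunit of phosphoinositide 3-kinase gamma, from 34.6 ± 6.44 to 897 ± 189 (4.68 ± 0.20). Its regulatory subunit Pik3r5 rose as well (4.03 ± 0.21). Of the inhibitory alpha subunits to which P2Y12, A1 and A3 receptors couple, Gnai2 rose (1.29 ± 0.10), Gnai3 rose (0.50 ± 0.09), Gnai1 fell (-0.32 ± 0.09, a call lost without Input 207, Input 208 or Positive 207, at -0.27, -0.31 and -0.27, and with limma, at -0.34) and Gnao1 was not called (-0.11 ± 0.08). Potassium channel genes of the 2-pore family differed in size of change, with Kcnk6 at 3.94 ± 0.22 and Kcnk13, which encodes the THIK-1 channel, at 1.18 ± 0.22. The lowest values were for Grk3 (-0.61 ± 0.08) and Adcy5 (-0.46 ± 0.09).

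Of 6 tested partners of P2X7 and products of the inflammasome, 5 rose and 0 fell by edgeR (median 2.78), and 0 fell at an unadjusted p under 0.05, by DESeq2 or by limma. Over all genes tested, 24.0% were called higher and 22.0% lower, and of the 5 that rose Nlrp3 and Casp1 passed the filter only through Positive. Nlrp3, the inflammasome sensor, had 10.2, 12.9 and 8.36 scaled reads in Input and 186, 297 and 159 in Positive (log2 fold change 4.32 ± 0.31 SE). The adaptor gene Pycard (4.26 ± 0.18), the pore gene Gsdmd (3.07 ± 0.21), the protease gene Casp1 (2.49 ± 0.25) and Nek7 (1.11 ± 0.12) rose, while Il18, a cytokine released after inflammasome assembly, had 183 ± 24.0 and 162 ± 50.9 scaled reads and was not called (-0.17 ± 0.21). Il1b was not tested.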
